A study of Mus musculus with 4 samples.

Results

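Osteoclasts form when mononuclear precursors of the macrophage line fuse into multinucleated cells that resorb bone, and 7 genes for proteins of that step or of the mature osteoclast surface are described here: Dcstamp, Ocstamp, Cd47, Sirpa, Siglec15, Oscar and Calcr. They were chosen by name, from a list of fusion proteins and osteoclast surface receptors, and all 7 were among the 17194 gene symbols of the count table and the 15651 genes tested. Polyadenylated RNA came from primary mouse bone marrow macrophages kept with RANKL, the cytokine that drives osteoclast formation, for 2 days. The 2 siControl and 2 siHells libraries were named for the siRNA, and siHells targets Hells, a chromatin remodelling ATPase that normal DNA methylation needs. All 4 libraries carry the RANKL exposure, so no unexposed cells are compared. The sources used here do not give the mouse strain, sex or age, the dose of RANKL, the sequence of either siRNA, or how many animals or cultures were used.

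DC-STAMP and OC-STAMP, the products of Dcstamp and Ocstamp, are multi-pass membrane proteins without which osteoclast precursors do not fuse normally. CD47 and its receptor SIRPA form a contact pair on macrophages that holds back engulfment and also takes part in fusion. Siglec-15, a lectin for sialic acids, and OSCAR, a receptor for collagen, carry no signalling motif of their own and pass signals through the ITAM adaptors DAP12 and FcR gamma. CALCR, the calcitonin receptor, is a G protein-coupled receptor that appears on maturing osteoclasts and through which calcitonin stops resorption.

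Total counts ran from 48873635 to 55642819 per library. Hells was at 29.3 and 30.0 CPM in siControl and 15.2 and 14.6 CPM in siHells, a log2 fold change of -0.99 (SE 0.068), so the knockdown was partial. CPM are counts normalised to library size with TMM factors. Each adjusted p comes from edgeR's quasi-likelihood fit, corrected by the Benjamini-Hochberg method across the 15651 genes, unless another test is named. Nothing in the labels says that libraries of a group came from separate cultures, so p-values rest on the spread between these libraries only, and that spread may be technical. All 12 macrophage markers checked were in the table, with 11 higher and 1, Cd68, lower (29.0% and 29.5% of all genes tested). Their summed level was 17862 to 17978 CPM in siControl and 30222 to 31165 CPM in siHells. Most of that sum was Lyz2, at 11347 ± 70.0 CPM in siControl and 17284 ± 412 CPM in siHells (SD, n = 2 each).

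In the siHells libraries 6 of the 7 genes were lower and 1, Cd47, was higher, at an adjusted p under 0.05. Over all genes tested, 29.5% were lower and 29.0% were higher by the same rule, 58.5% together, so a pass alone says little and sizes carry the description. Siglec15 fell 16.0-fold, Oscar 7.64-fold, Dcstamp 4.23-fold and Ocstamp 3.77-fold. Sirpa fell 1.62-fold and Calcr 1.53-fold, while Cd47 rose 1.19-fold. The groups did not overlap for any of the 7, which also held for 39.4% of genes on the lower side and 39.1% on the higher side. Against a change of 1.5-fold rather than 0 (edgeR glmTreat), 5 of the 7 passed, all of them lower, where 15.1% of all genes passed in either direction. In bulk RNA, fewer cells of a type and less RNA per cell cannot be told apart.

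**Figure D1:**
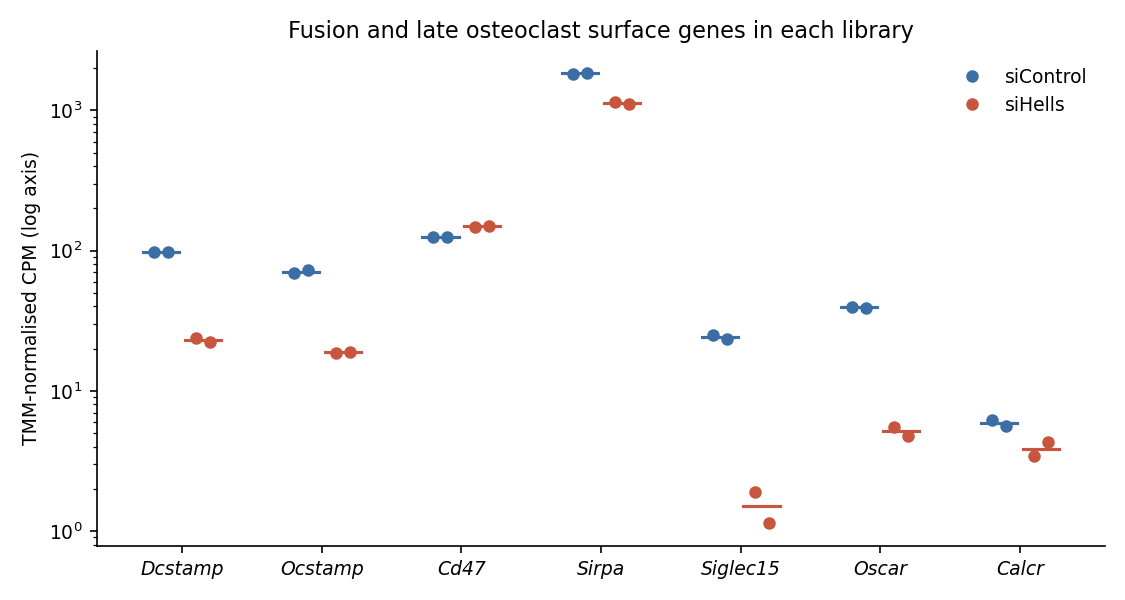
TMM-normalised CPM on a log axis for the 7 genes in each library, with points for libraries and lines for group means (siControl blue, siHells red, 2 libraries each). The siHells points of Siglec15 lie at 1.90 and 1.14 CPM under siControl points at 25.1 and 23.5 CPM, and Cd47 is the gene whose siHells points lie above.

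Both genes for fusion proteins fell. Dcstamp was at 97.0 and 98.0 CPM in siControl and at 23.6 and 22.5 CPM in siHells, from counts of 5334, 4902, 1282 and 1205. Both siHells libraries lay far below both siControl libraries, and the coefficient of variation between libraries was 0.664% in siControl and 3.65% in siHells. Its log2 fold change was -2.08 (SE 0.051, 95% interval -2.19 to -1.97, adjusted p = 2.29e-14). Ocstamp was at 69.4 and 72.4 CPM in siControl and at 18.7 and 18.9 CPM in siHells, from counts of 3815, 3624, 1014 and 1014. Here too the groups were far apart, and the change was -1.91 (SE 0.056, 95% interval -2.03 to -1.80, adjusted p = 1.86e-13). The intervals of the pair overlap, and the difference between the changes was not tested. Per kilobase of exon, Dcstamp was 1.92 and 1.86 times as abundant as Ocstamp in siControl and 1.74 and 1.63 times in siHells. The size of this ratio depends on the gene model. With the longest coding transcript as the length, Dcstamp was at 48.8 CPM per kilobase in siControl and 11.5 in siHells. Ocstamp, with a single annotated transcript, stayed at 19.4 and 5.14. Among all genes tested, ordered from the largest fall, Dcstamp was number 189 and Ocstamp number 237.

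Dcstamp lies on chromosome 15 at 39745930 to 39760938 of GRCm38, plus strand, and Ocstamp on chromosome 2 at 165393760 to 165400405, minus strand. No other annotated gene overlaps either of them in GENCODE M21.

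The transcripts of Cd47 and Sirpa moved apart. Cd47 was at 124 and 126 CPM in siControl and at 148 and 151 CPM in siHells, from counts of 6832, 6306, 7999 and 8092. The rise was small, and its siHells libraries lay above both siControl libraries, with a log2 fold change of 0.25 (SE 0.036, 95% interval 0.18 to 0.33, adjusted p = 2.05e-05). Sirpa, the most abundant of the 7, was at 1830 and 1844 CPM in siControl and at 1146 and 1115 CPM in siHells. Its counts were 100584, 92254, 62144 and 59813, its groups were well apart, and its log2 fold change was -0.70 (SE 0.026, 95% interval -0.75 to -0.65, adjusted p = 2.81e-12). As Sirpa encodes a receptor and Cd47 its ligand, the ratio of their transcripts is given. Neither protein was measured. Per kilobase of exon, Sirpa transcripts outnumbered those of Cd47 by 18.8 and 18.7 to 1 in siControl and by 9.93 and 9.45 to 1 in siHells. Cd47 did not pass against a 1.5-fold change (adjusted p = 1, with a range of 4.95e-08 to 1 over its alternatives), and Sirpa did (adjusted p = 0.000432, range 1.62e-93 to 0.000432).

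Cd47 lies on chromosome 16 at 49800533 to 49915010, plus strand, and Sirpa on chromosome 2 at 129592835 to 129632228, plus strand, with no overlapping annotated gene. Sirpa resembles the Sirpb1 genes in part of its sequence, so reads between them may be split. Of these, Sirpb1a was at 4.08 ± 0.055 CPM in siControl and 2.95 ± 0.074 CPM in siHells, Sirpb1b at 8.72 ± 0.726 and 8.66 ± 0.383 CPM, and Sirpb1c at 14.3 ± 1.59 and 13.1 ± 0.285 CPM (SD, n = 2 each).

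The receptors coupled to ITAM adaptors showed the largest falls of the 7. Siglec15 was at 25.1 and 23.5 CPM in siControl and at 1.90 and 1.14 CPM in siHells, from counts of 1377, 1177, 103 and 61. Every siHells count was far below every siControl count, yet the siHells libraries differed from each other, with a coefficient of variation of 35.5% against 4.46% in siControl. The log2 fold change was -4.00 (SE 0.14, 95% interval -4.30 to -3.70, adjusted p = 1.75e-12). Leaving out siHells replicate 1 moved it to -4.41, and leaving out siHells replicate 2 to -3.67. The ratio of summed counts, siControl over siHells and scaled for library size, was 16.0, and its exact binomial 95% interval, 13.7 to 18.8, covers counting error only. It was number 18 among the falls of all genes tested.

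Oscar was at 39.7 and 39.1 CPM in siControl and at 5.55 and 4.75 CPM in siHells, from counts of 2182, 1956, 301 and 255. The groups were again far apart, and the log2 fold change was -2.93 (SE 0.085, 95% interval -3.11 to -2.75, adjusted p = 1.65e-13). Its summed counts, scaled in the same way, had a ratio of 7.64 (95% interval 7.0 to 8.37, counting error only), and it was number 75 among the falls. The intervals of Siglec15 and Oscar do not overlap, and per kilobase of exon the ratio of Oscar to Siglec15 was 0.99 and 1.04 in siControl and 1.83 and 2.62 in siHells. Siglec15 lies on chromosome 18 at 78043614 to 78057395, minus strand, and Oscar on chromosome 7 at 3609813 to 3616157, minus strand, neither overlapped by another annotated gene.

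Calcr, which per kilobase of exon had the lowest siControl level of the 7, was at 6.22 and 5.60 CPM in siControl and at 3.45 and 4.29 CPM in siHells. Its counts were 342, 280, 187 and 230, and both siHells libraries lay below both siControl libraries, with a coefficient of variation of 15.3% between them. The scaled ratio of summed counts was 1.53, and its exact binomial 95% interval, 1.35 to 1.74, covers counting error only. The log2 fold change was -0.61 (SE 0.14, 95% interval -0.92 to -0.31, adjusted p = 0.00186). Without siHells replicate 1 the value was -0.46, and with siHells replicate 2 left out it was -0.78. Calcr did not pass against a 1.5-fold change (adjusted p = 0.726, with a range of 0.000273 to 0.726 over its alternatives). The gene lies on chromosome 6 at 3685680 to 3764714, minus strand, and holds the microRNA genes Mir653 and Mir489 in introns.

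**Figure D2:**
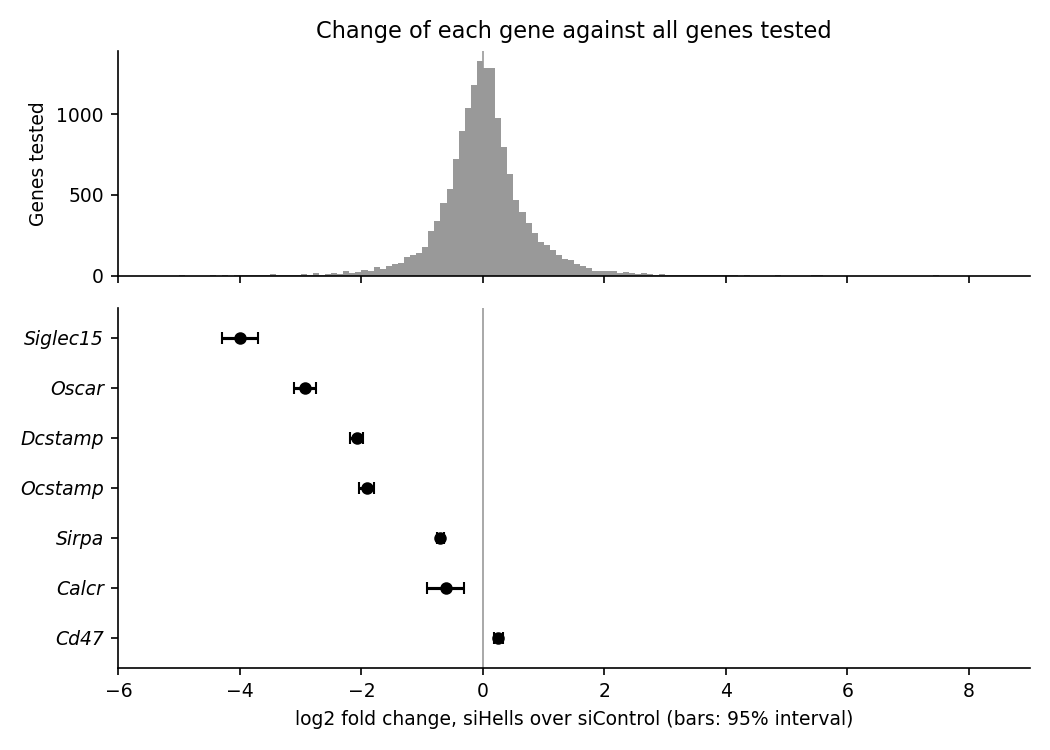
Upper panel, the number of genes tested by log2 fold change, siHells over siControl. Lower panel, the 7 genes on the same axis with 95% intervals, where Siglec15 at -4.00 and Oscar at -2.93 lie in the thin lower tail and Sirpa, Calcr and Cd47 lie within the main body.

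Levels were compared between genes as CPM per kilobase of exon, with the union of all annotated exons as the length. In siControl the order was Sirpa at 374 ± 1.96, Dcstamp at 36.6 ± 0.243, Oscar at 21.3 ± 0.234, Siglec15 at 21.01 ± 0.937, Cd47 at 19.9 ± 0.194, Ocstamp at 19.4 ± 0.582 and Calcr at 1.51 ± 0.113 (SD, n = 2 each). The libraries of Oscar and Siglec15 overlapped, and Cd47 and Ocstamp differed by less than the SD of Ocstamp, so these neighbours are not ordered. With the longest coding transcript as the length, Cd47 moved to 23.8 and place 3, so its place beside Oscar, Siglec15 and Ocstamp depends on the gene model. In siHells the order was Sirpa at 230.2 ± 4.55, Cd47 at 23.8 ± 0.367, Dcstamp at 8.65 ± 0.316, Ocstamp at 5.14 ± 0.037, Oscar at 2.79 ± 0.306, Siglec15 at 1.31 ± 0.467 and Calcr at 0.989 ± 0.151. Siglec15 and Calcr overlapped there, while in siControl Siglec15 had been 13.6 and 14.2 times as abundant as Calcr. Among 14582 genes with a length, Siglec15 stood at percentile 83.7 in siControl and 27.1 in siHells, Oscar at 84.1 and 38.8, and Dcstamp at 91.0 and 64.4.

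**Figure D3:**
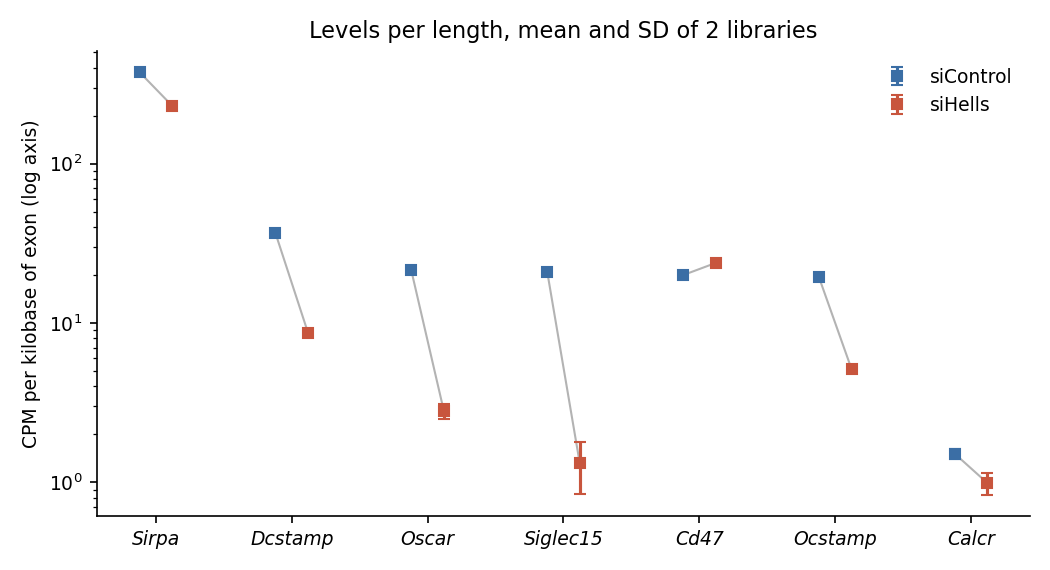
CPM per kilobase of exon on a log axis, mean with SD of 2 libraries, siControl blue and siHells red, joined by a line for each gene. Oscar, Siglec15, Cd47 and Ocstamp start between 19.4 and 21.3 in siControl and end between 1.31 (Siglec15) and 23.8 (Cd47) in siHells.

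Promoter sequence from RefSeq (GRCm38.p6) was on hand for 3 of the 7 genes, Oscar, Calcr and Cd47. The stretches below are shown because Oscar and Calcr fell and Cd47 rose, and because their windows differ in makeup. Each was searched over the 250 bases before the start site, on both strands, for an AP-1 site (TGANTCA, found in 6.75% of the 32851 windows of the RefSeq table), the NFAT core (GGAAA, 55.6%), the PU.1 core (GAGGAA, 23.3%), the E-box (CANNTG, 66.2%), the MITF M-box (CATGTG, 12.3%, one form of the E-box) and the TATA box (TATAAA, 12.4%). The Oscar window at chr7:3616158-3616407, minus strand, held 3 NFAT cores, 1 PU.1 core and 4 E-boxes, 1 of which was an M-box. The outer Calcr window, of which chr6:3764715-3764963 on the minus strand is printed, held 1 NFAT core and 1 E-box. AP-1, NFAT, PU.1 and M-box matches are in capitals, and read on the opposite strand the NFAT core is TTTCC, the PU.1 core TTCCTC and the M-box CACATG. A match is a run of letters and not a shown binding site.
Oscar: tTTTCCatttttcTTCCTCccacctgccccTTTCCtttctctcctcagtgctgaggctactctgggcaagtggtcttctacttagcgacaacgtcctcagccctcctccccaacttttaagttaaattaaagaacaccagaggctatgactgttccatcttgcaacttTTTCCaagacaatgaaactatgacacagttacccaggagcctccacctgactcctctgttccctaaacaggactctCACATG
Calcr, outer start: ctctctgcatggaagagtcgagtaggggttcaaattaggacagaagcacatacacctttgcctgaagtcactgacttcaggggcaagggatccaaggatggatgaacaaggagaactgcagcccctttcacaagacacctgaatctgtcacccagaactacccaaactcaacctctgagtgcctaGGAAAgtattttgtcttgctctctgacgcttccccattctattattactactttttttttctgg

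The inner Calcr window, printed as chr6:3763631-3763873 on the minus strand, and the Cd47 window, printed as chr16:49855404-49855632 on the plus strand, held 0 matches to any of the 6 motifs. Both are rich in CpG, the dinucleotide that DNA methylation acts on, and CpG is in capitals in this pair. The inner Calcr window had 24 CpG in 250 bases and the Cd47 window 30, against 2 each in the Oscar and outer Calcr windows and a median of 6 over all windows. The share of all windows with fewer CpG was 88.0% for inner Calcr, 94.1% for Cd47 and 18.8% for the other pair. The Cd47 window precedes a start site at 49855654, which lies within the gene span given above and not at its outer end. A further Cd47 window, for a start site at 49855661, overlaps it and is not printed. It had 31 CpG and also 0 matches. Methylation was not measured here, and printed stretches stop where an annotated exon begins.
Calcr, inner start: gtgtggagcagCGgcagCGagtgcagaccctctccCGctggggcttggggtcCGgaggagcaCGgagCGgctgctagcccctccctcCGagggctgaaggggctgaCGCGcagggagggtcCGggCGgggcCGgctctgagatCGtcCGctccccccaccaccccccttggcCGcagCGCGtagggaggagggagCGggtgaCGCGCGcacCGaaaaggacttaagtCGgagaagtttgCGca
Cd47: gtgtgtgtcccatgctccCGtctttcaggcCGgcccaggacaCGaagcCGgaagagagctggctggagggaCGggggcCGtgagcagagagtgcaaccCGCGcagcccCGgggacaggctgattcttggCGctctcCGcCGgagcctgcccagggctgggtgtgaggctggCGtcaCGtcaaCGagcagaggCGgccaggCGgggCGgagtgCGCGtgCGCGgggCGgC

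Genes next to the 7 on the chromosome, at distances from 1.22 kb (Ndufa3) to 277 kb (Bbx), went both ways. Over all genes tested, 29.5% were lower and 29.0% were higher. Of 14 flanking genes, the nearest tested coding gene on each side, 7 passed the test in the direction of their neighbour, 3 in the opposite direction and 4 did not pass. One of those in the same direction, Lrp12 beside Dcstamp with a log2 fold change of -0.14, lost its call without siControl replicate 1, siControl replicate 2 or siHells replicate 1. Beside Siglec15, both flanking genes rose. Epg5, an autophagy gene 8.60 kb away, had a log2 fold change of 0.37 (SE 0.052). Slc14a1, a urea transporter 42.7 kb away, had 0.90 (SE 0.26). Its level was low, at 0.788 ± 0.069 CPM in siControl and 1.47 ± 0.102 CPM in siHells (SD, n = 2 each). Beside Oscar, Ndufa3, a subunit of respiratory complex I that starts 1.22 kb away, fell by 0.36 (SE 0.061) on the log2 scale. Slc13a3, a dicarboxylate transporter 4.62 kb from Ocstamp, fell by 0.95 (SE 0.059), from 43.4 ± 1.41 to 22.5 ± 0.177 CPM (SD, n = 2 each). Cd47 had rising genes on both sides, Ift57, 35.4 kb away, with 0.97 (SE 0.083) and Bbx, 277 kb away, with 0.52 (SE 0.042). Both rose by more than Cd47 itself. The flanking genes were looked up after the values of the 7 genes had been seen.

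**Figure D4:**
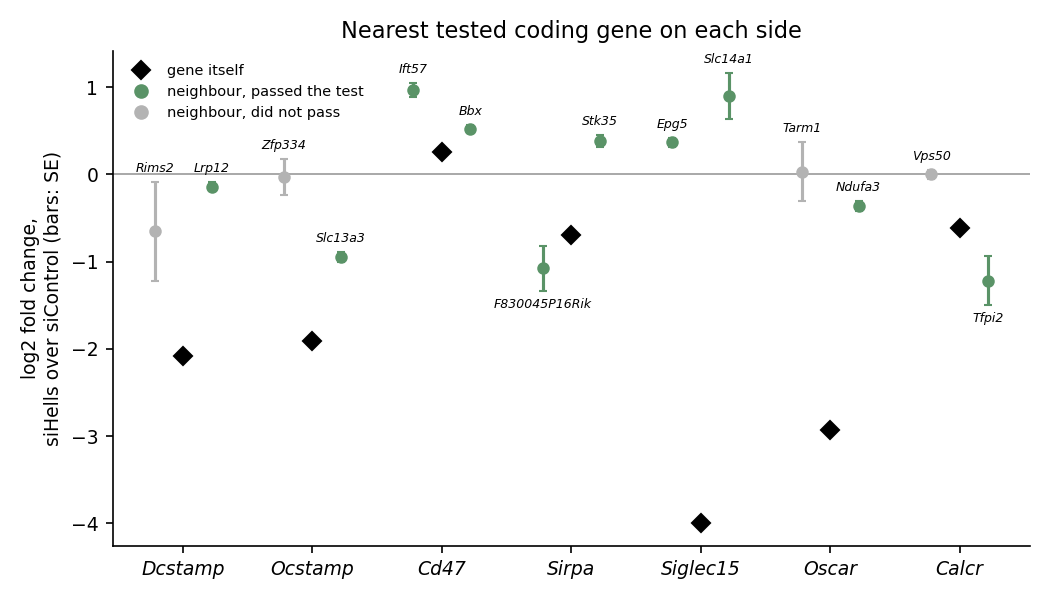
Log2 fold change of each of the 7 genes (black diamonds) and of the nearest tested coding gene on each side (circles with SE bars, green where they passed the test and grey where they did not). Siglec15 at -4.00 lies between Epg5 at 0.37 and Slc14a1 at 0.90.

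The genes whose pattern was most like each of the 7 were found by the distance between their log2 CPM over the 4 libraries, after each gene had been centred on its mean, among 11053 candidates. With 2 libraries in each of 2 groups this measure mostly picks genes of like fold change. For Dcstamp the nearest were Prdm1 (distance 0.040 on the log2 scale), Cdon (0.080) and Ighm (0.104), and for Ocstamp they were Rnf24 (0.0099), Lmtk2 (0.038) and Bhlhe40 (0.048). Siglec15 was nearest to Itgax (0.125), Spint2 (0.285) and Ciita (0.330), and Oscar to Akap6 (0.162), Fam102a (0.173) and Ctsk (0.182). Cd47 lay close to Plekhf2 (0.0076), Cdipt (0.0089) and Xpo7 (0.010), and Sirpa to Cox6b1, C9orf72 and Dnaja3 (0.013 to 0.014). For Calcr they were Tnni2 (0.049), Svip (0.066) and Nsl1 (0.070).

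Partner genes of fusion went both ways. Of 24 tested, 11 fell, 10 rose and 3 did not pass, where 29.5% of all genes tested fell and 29.0% rose. Against a 1.5-fold change, 9 of the partners were lower and 3 higher. The median log2 fold change of the 24 was -0.05, where the median over all genes tested was 0.00 (-0.0043). Atp6v0d2, a proton pump subunit needed for fusion, fell from 793 ± 8.55 to 154 ± 3.47 CPM and Cd9, a tetraspanin, from 223 ± 1.69 to 55.2 ± 1.57 CPM (SD, n = 2 each). Src, a tyrosine kinase, fell by 2.31 (SE 0.040) on the log2 scale. Dock5, an exchange factor for Rac, fell by 1.46 (SE 0.034) on the log2 scale, and the beta 3 integrin Itgb3 by 1.85 (SE 0.055). The tetraspanin Cd81 rose by a log2 fold change of 1.70 (SE 0.040) and the metalloprotease Adam12 by 2.00 (SE 0.14). Cd81, Itgb3 and Adam12 were picked after their values had been seen.

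Genes of late resorption fell without exception among those listed, 16 of 16, where 29.5% of all genes tested were lower. This list, like the others, was chosen with earlier results of these data known. Its median log2 fold change was -1.77. Oscar, Siglec15, Dcstamp and Ocstamp fell by more than that median. Sirpa fell by less, as did Calcr, also known from late osteoclasts. Mmp9, a gelatinase, fell by 3.37 (SE 0.027), Ctsk, cathepsin K, by 2.82 (SE 0.029) and Acp5, the tartrate-resistant acid phosphatase, by 2.32 (SE 0.028) on the log2 scale. Atp6v0d2 and Itgb3 stand on this list and on that of fusion partners.

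**Figure D5:**
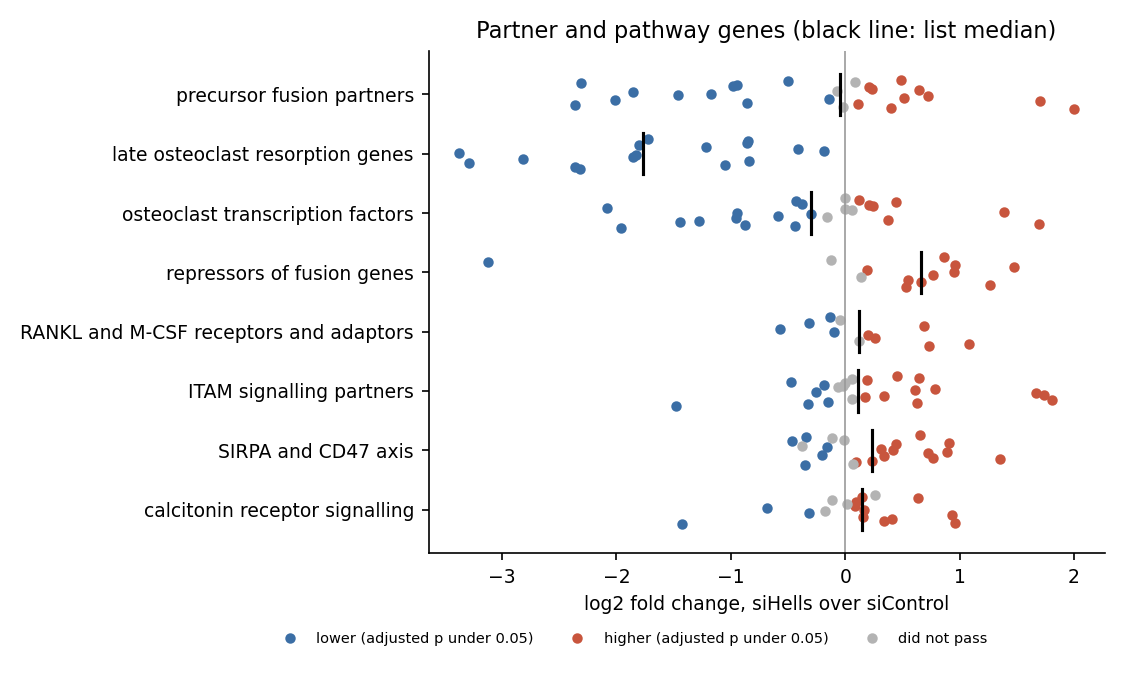
Log2 fold change, siHells over siControl, of each tested gene in 8 lists of partner and pathway genes, coloured by whether it passed the test, with the list median as a black line. All 16 late resorption genes lie below 0, and the median of the listed repressors lies at 0.67.

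Transcription factors known from osteoclast formation fell in 12 of 23 cases and rose in 7, with a median of -0.30. Nfatc1, the factor that RANKL induces and that acts on Dcstamp and Oscar, fell from 339 ± 0.822 to 175 ± 0.141 CPM, a log2 fold change of -0.95 (SE 0.031), a smaller fall than those of Dcstamp, Ocstamp, Oscar and Siglec15. Mitf, a helix-loop-helix factor that also acts on Oscar, fell by 0.59 (SE 0.043). Prdm1, which encodes the repressor BLIMP1, fell by 2.09 (SE 0.044) and Bhlhe40 by 1.96 (SE 0.042). The AP-1 family genes Fosl2 and Jdp2 fell by 1.44 (SE 0.033) and 1.28 (SE 0.032). Of the 7 that rose, Nfatc2, of the same family as Nfatc1, had a log2 fold change of 1.39 (SE 0.046). Fosl1, of the AP-1 family, had 1.69 (SE 0.20), from a low siControl level of 1.19 ± 0.240 CPM. Nfatc2 and Fosl1 were picked after their values had been seen. Among 13 genes listed as repressors of fusion genes, 10 rose and 1 fell, with a median of 0.67. Over all genes tested, 29.0% were higher and 29.5% lower. The list holds the genes of 2 inhibitory surface receptors, Lilrb4a and Pilra, beside regulators of transcription. It too was chosen with earlier results of these data known. Irf8, a factor that holds back osteoclast formation, rose by a log2 fold change of 0.96 (SE 0.035) and Zbtb20 by 0.87 (SE 0.065). Pilra, an inhibitory receptor, was the listed gene that fell, from 21.5 ± 0.907 to 2.46 ± 0.582 CPM (SD, n = 2 each).

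Neither adaptor gene of the ITAM-coupled receptors passed the test as lower. Tyrobp, which encodes DAP12, the partner of Siglec-15, was at 605 ± 1.98 CPM in siControl and 629 ± 31.1 CPM in siHells, and its log2 fold change of 0.06 (SE 0.033) did not pass (adjusted p = 0.157). The adjusted p of Tyrobp was 0.00104 without siHells replicate 2, with a log2 fold change of 0.11, and with library totals in place of TMM the value was -0.017. Fcer1g, which encodes FcR gamma, the partner of OSCAR, rose from 337 ± 6.95 to 426 ± 15.3 CPM (log2 fold change 0.34, SE 0.033). Of 22 tested genes of ITAM signalling, with a median of 0.11, 11 rose, 6 fell and 5 did not pass. Over all genes tested, 29.0% rose and 29.5% fell. Blnk, an adaptor below the ITAM kinases, fell by 1.48 (SE 0.038) on the log2 scale. The Fc receptor genes Fcgr3 and Fcgr4 rose by log2 fold changes of 1.74 (SE 0.039) and 1.67 (SE 0.050), and Inpp5d, a phosphatase that restrains this signalling, by 0.78 (SE 0.031).

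Genes around SIRPA and CD47 rose in 12 of 21 cases and fell in 5 (29.0% and 29.5% of all genes), with a median of 0.23. The phosphatases that SIRPA recruits moved little and apart, with Ptpn6 lower by a log2 fold change of -0.16 (SE 0.031) and Ptpn11 higher by 0.31 (SE 0.037). Fyb, an adaptor, rose by 1.35 (SE 0.028), the kinase gene Lyn by 0.89 (SE 0.032) and Lrp1, a receptor for calreticulin, by 0.72 (SE 0.027). Thbs1, which encodes thrombospondin, a further ligand of CD47, rose from 504 ± 20.9 to 795 ± 9.89 CPM (SD, n = 2 each).

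Genes of calcitonin receptor signalling rose in 10 of 17 cases and fell in 3 (29.0% and 29.5% of all genes), with a median of 0.15. The lower count was 5 without siHells replicate 1, and it was 5, with 6 higher, when library totals replaced TMM. Ramp1, whose product turns CALCR into an amylin receptor, was at 2.90 ± 0.529 CPM in siControl and 3.46 ± 0.091 CPM in siHells (SD, n = 2 each) and did not pass (log2 fold change 0.26, SE 0.17, adjusted p = 0.208). Ramp2 and Ramp3 were not analysed here. Calcrl, the receptor gene closest to Calcr, had a log2 fold change of -0.32 (SE 0.1), and its call was lost without siControl replicate 1 or siControl replicate 2. Adcy3, an adenylyl cyclase, fell by 1.43 (SE 0.052), Crem, a cAMP-responsive factor, by 0.69 (SE 0.11) on the log2 scale, and Arrb2, a beta-arrestin, rose by a log2 fold change of 0.94 (SE 0.037). The protein kinase A gene Prkacb had 0.64 (SE 0.035) and the cyclase gene Adcy7 0.34 (SE 0.033). Upstream, 11 genes of the RANKL and M-CSF receptors and adaptors had a median of 0.12. Of these, 5 rose and 4 fell (29.0% and 29.5% of all genes). The lower count there was 2 without siControl replicate 1, siControl replicate 2 or siHells replicate 1, each left out alone. Tnfrsf11a, the RANKL receptor RANK, fell by 0.57 (SE 0.039), and Csf1r, the M-CSF receptor, rose by 0.73 (SE 0.024). The adaptor gene Gab2 rose by 1.08 (SE 0.038) and Tnfrsf1a, a TNF receptor, by 0.69 (SE 0.037), while the adaptor gene Traf2 had a log2 fold change of -0.32 (SE 0.05). Traf6 and Tnfaip3 had -0.14 (SE 0.05) and -0.10 (SE 0.042), and their calls were the ones lost.

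Markers of other marrow cells moved with the groups as well, where 29.0% of all genes tested were higher and 29.5% lower. The 10 stromal and osteoblast markers tested of 12 listed summed to 1009 to 1033 CPM in siControl and 1777 to 1808 CPM in siHells, with 7 higher and 2 lower, and Bglap and Lum were not analysed here. The 8 neutrophil markers tested of 9 summed to 482 to 490.0 CPM and 388 to 411 CPM, with 5 lower and 1 higher, and Ly6g was not analysed here. The lower neutrophil count was 3 without siControl replicate 2 or siHells replicate 2, and the higher count 2 without siHells replicate 2. The 4 dendritic cell markers tested of 7 summed to 17.9 to 19.0 CPM and 8.72 to 9.30 CPM, with 2 higher and 1, Itgax, lower. Most of the siControl sum was Itgax, at 13.9 ± 0.533 CPM in siControl and 0.870 ± 0.335 CPM in siHells (SD, n = 2 each). The fall of the sum was thus that of Itgax, against the rise of Flt3 and Zbtb46. The 3 lymphoid markers tested of 10 summed to 73.2 to 78.5 CPM and 31.5 to 32.2 CPM, most of it Cd4, with 1 lower, or 2 without siHells replicate 1, and the defining genes Cd3e and Cd79a were not analysed here. The part of these cells in the changes of the 7 genes was not tested.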

How the data were processed

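RNA from 4 libraries, 2 siControl and 2 siHells, was compared on day 2. The authors deposited whole-number counts per gene symbol, not normalized. Per the submitters' processing notes, FastQC, Trimmomatic 0.38, HISAT2 2.1.0, StringTie 2.1.3b, edgeR and build mm10 were used, in roles not given. For annotation and strand setting, nothing is stated there. Per the labels' protocols, both a SMARTer and a stranded TruSeq kit were used, so strand is unclear. The lowest count is 1, so genes at 0 in any library were not analysed here. One count is worth 0.0182 to 0.0200 CPM.

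Genes were kept by filterByExpr (minimum count 10, minimum total 15), which removed 1543, and scaled by TMM. The test was the quasi-likelihood test of edgeR 4.0.16 (R 4.3.3), with group as the term, 2 residual degrees of freedom and a threshold of 0.05 after Benjamini-Hochberg adjustment. Standard errors are the log2 fold change over the root of F. P-values and intervals use the total degrees of freedom, the residual ones plus those edgeR gains by pooling the spread across genes. Replicates differed by more than sampling noise (chi-square per gene 3.45 in siControl and 6.28 in siHells). GENCODE M21 gave lengths and coordinates. The RefSeq table holds gene spans, not exon lengths, so the longest coding transcript of GENCODE served as the alternative. On simulated counts for this comparison (15642 genes run), 43.5% of 1.2-fold, 79.6% of 1.5-fold, 87.2% of 2-fold and 100% of 4-fold changes were recovered. There were 4 false among 151 calls. The simulation gave every gene the same dispersion and changed only 46 to 49 tested genes per fold size. In the real data 58.5% of genes passed, so these rates need not hold there.

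The genes, lists and alternatives were chosen with earlier results of these data known. Named genes are the 7, Hells, direct partners, the 4 lowest p-values of each list, called genes against a list's majority (where 4 or fewer), and the 3 nearest genes. Others were named after their values were seen. Marker genes of other cells are given as sums. Alternatives were other scalings, filters and tests (DESeq2 1.42.0, limma voom 3.58.1), a replicate block, each library left out, and a 1.5-fold threshold.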

Additional observations from a re-analysis of the deposited data

How the results depend on the processing

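The 6 falls and the rise of Cd47 kept their direction under all 12 alternatives, and kept their side of the threshold except against a 1.5-fold change. There Cd47 (log2 fold change 0.25) and Calcr (-0.61) did not pass, with adjusted p = 1 and 0.726 (edgeR glmTreat), and 0 of the 7 were higher. Leaving out each library in turn gave log2 fold changes of -2.12 to -2.04 for Dcstamp, -1.95 to -1.88 for Ocstamp, 0.24 to 0.27 for Cd47, -0.72 to -0.68 for Sirpa, -4.41 to -3.67 for Siglec15, -3.05 to -2.82 for Oscar and -0.78 to -0.46 for Calcr. With the replicate number as a block, Calcr had a log2 fold change of -0.62 and an adjusted p = 0.00434. The block changed the call of none of the 7, and gave 4502 genes higher and 4586 lower where the fit without it gave 4541 and 4612. The labels do not say that same-numbered libraries are pairs, so the numbers are not taken as pairs. Deviations of same-numbered libraries from their group means had a correlation of 0.0499 over 15651 genes. With 2 libraries per group both numbers give the same value, so it cannot show whether libraries were paired.

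Against a 1.5-fold change, by the construction of that test, 1261 genes were higher and 1096 lower. By list, in the order higher and lower, it left 3 and 9 fusion partners, 4 and 1 of ITAM signalling, 5 and 0 around SIRPA and CD47, 2 and 1 of calcitonin signalling, 2 and 7 transcription factors, 5 and 1 repressors, 0 and 14 of late resorption, and 3 and 0 of the RANKL and M-CSF genes. Calcitonin signalling had 6 higher and 5 lower with library totals, and 5 lower with a filter of 1 CPM in 2 libraries. Its lower count ranged from 3 to 5 without single libraries. The RANKL and M-CSF list had 2 lower with DESeq2, and 2 to 3 without single libraries. The cause was not tested. Tyrobp, not called, was at -0.017 with library totals in place of TMM. Calls of Tnni2 and Calcrl were lost with DESeq2 (adjusted p = 0.0582 and 0.101). Depth limits Siglec15 in siHells and Calcr most, at 61 to 103 and 187 to 230 counts.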

Other observations

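Relatives of these receptors were looked up with the data already seen. Of 8 other Siglec genes tested, 4 rose and 2 fell (29.0% and 29.5% of all genes tested). Siglec1, the sialoadhesin of macrophages, rose 3.27-fold, from 519 ± 8.87 to 1695 ± 18.8 CPM, and Siglece, an inhibitory Siglec, 3.91-fold, from 4.64 ± 0.509 to 18.1 ± 1.05 CPM (SD, n = 2 each). Cd33 and Siglecg rose by log2 fold changes of 0.54 (SE 0.063) and 0.91 (SE 0.21). Cd22 and Mag fell by 0.67 (SE 0.12) and 0.78 (SE 0.13) on the log2 scale, where the log2 fold change of Siglec15 was -4.00.

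Of 7 tested genes of the leukocyte immunoglobulin-like receptors, to which OSCAR is related, 4 fell and 2 rose (29.5% and 29.0% of all genes). The activating receptors Pira1 and Pira2 fell by 0.57 (SE 0.045) and 0.72 (SE 0.044) on the log2 scale, Lilra6 by 0.57 (SE 0.067) and Lair1, an inhibitory collagen receptor, by 0.97 (SE 0.072). The inhibitory receptors Pirb and Lilrb4a rose by log2 fold changes of 0.75 (SE 0.032) and 0.19 (SE 0.029). Pira and Pirb genes are near copies among which reads may be split. Among 4 tested relatives of CALCR, Vipr2, a receptor for vasoactive intestinal peptide, rose from counts of 6 and 16 to 50 and 62 (log2 fold change 2.30, SE 0.42), and the value was 1.68 without siControl replicate 1 and 3.23 without siControl replicate 2. Calcrl, the closest relative of Calcr, passed narrowly, at -0.32 (SE 0.10, edgeR adjusted p = 0.0303). That call was lost with DESeq2 and without either siControl library, and its adjusted p ranged up to 1 over the alternatives.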
